A study of Mus musculus with 2 samples.

Results

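The genes described here are the 30 genes of sterol and fatty acid synthesis that were listed by symbol among the 32285 mouse genes of the feature tables, and all 30 were found. They fall into 18 enzymes of the sterol pathway, 6 regulators and carriers of sterols and 6 genes of the fatty acid arm. Levels were read in each cell class and in each library from mouse brain bearing a glioma. The genes were chosen with earlier results of these data known.

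The series holds 2 single-cell RNA-seq libraries, 1 per group. One came from mice labelled C57BlL6 WT. The other came from mice labelled Cav3.2KO with the genotype Cacna1H-/-, a deletion of a T-type calcium channel gene. Below they are called the WT-labelled and the KO-labelled library. Both hosts carried an implant of GL261, a mouse glioma cell line, and brain tissue with tumour and its surroundings was taken at day 24. The channel was deleted in the host, so the implanted cells of both libraries are the same line, and the labels give no age, sex or number of animals. With 1 library per group no test is possible, and every interval below is a 95% interval that covers counting error only. Differences between the libraries can therefore not be told apart from differences between animals, dissections or preparations.

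After filtering, the WT-labelled library kept 3033 cells and the KO-labelled library 6411, with medians of 12166 and 10851 UMIs per cell and 54567114 and 103281480 UMIs in all barcodes. A UMI is a counted RNA molecule, and levels are given as CPM, UMIs per 1000000 mouse UMIs of a cell class. Over all kept cells, tumour-like cells included, Cacna1h itself had 8 UMIs in the WT-labelled library and 158 in the KO-labelled library. That is 0.160 CPM (0.0689 to 0.314) against 1.64 CPM (1.39 to 1.91). The direction goes against the labels. The gene was not deleted in the implanted cells, so this total does not read the host genotype alone. Tumour-like cells were, however, the larger share in the WT-labelled library, 22.5% of kept cells against 16.8% in the KO-labelled library. Their part in the Cacna1h totals was not tested. A 3′ tag outside the deleted part would also check nothing, so the libraries are called by their labels throughout. Among host cells of the WT-labelled library, 1980 had Y-linked UMIs without Xist and 0 had Xist without Y-linked UMIs. The KO-labelled library had 897 and 3719 such cells, so its host cells came from more than 1 animal. Host sex thus differed along with the label when all host cells were compared. The libraries shared 21 cell barcodes, 6 of them among the cells kept. Clusters were named without using any of the genes described here, and classes carry the suffix "-like" because the names rest on markers.

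Cholesterol is built from acetyl-CoA through mevalonate, isoprenoid units and squalene to lanosterol, which is then trimmed to cholesterol. When sterol in the endoplasmic reticulum is low, the escort protein encoded by Scap carries the SREBP transcription factors to the Golgi, where they are cleaved and then turn on the genes of this pathway. Insig1 and Insig2 encode anchors that hold them back when sterol is ample. The SREBP encoded by Srebf2 acts mainly on sterol genes and the main product of Srebf1 on fatty acid genes. In the brain cholesterol is made locally, and oligodendrocytes use large amounts of it for myelin.

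Promoter sequence was read for the members, since members of the pathway differed together in the cells described below. The RefSeq table on GRCm38.p6 held promoters for 24 of the 30 genes, and the 250 bases before the start site were searched on both strands. The 5 shown are an early and a later mevalonate enzyme whose levels differed between the libraries (Hmgcs1 and Mvd), a sterol enzyme whose level was within counting error (Ebp) and 2 genes of the fatty acid arm (Fasn and Acly). They are written 5′ to 3′ in the direction of the gene. Capitals mark matches to CCAAT or its reverse complement ATTGG and to TCACNCCAC, a form of the sterol regulatory element. Hmgcs1 lies at chr13:119690101-119690350 on the plus strand, Mvd at chr8:122443423-122443672 on the minus strand, Ebp at chrX:8193513-8193762 on the minus strand, Fasn at chr11:120824548-120824797 on the minus strand and Acly at chr11:100528001-100528250 on the minus strand. None of these windows overlaps an annotated exon.
Hmgcs1: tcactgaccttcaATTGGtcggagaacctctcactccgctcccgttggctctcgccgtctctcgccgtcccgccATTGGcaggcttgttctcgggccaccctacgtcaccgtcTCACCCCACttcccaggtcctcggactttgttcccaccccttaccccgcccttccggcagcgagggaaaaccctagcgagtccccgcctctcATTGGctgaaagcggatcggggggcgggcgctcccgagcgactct
Mvd: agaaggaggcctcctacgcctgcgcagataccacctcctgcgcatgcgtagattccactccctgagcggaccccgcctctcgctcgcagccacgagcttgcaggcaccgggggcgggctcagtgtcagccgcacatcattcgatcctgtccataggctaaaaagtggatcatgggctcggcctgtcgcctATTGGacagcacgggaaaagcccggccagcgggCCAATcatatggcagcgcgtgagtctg
Ebp: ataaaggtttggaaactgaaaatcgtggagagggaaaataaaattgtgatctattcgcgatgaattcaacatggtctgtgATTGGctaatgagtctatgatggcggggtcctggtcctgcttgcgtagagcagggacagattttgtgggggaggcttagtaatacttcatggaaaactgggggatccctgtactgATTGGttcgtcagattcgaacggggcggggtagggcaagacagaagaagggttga
Fasn: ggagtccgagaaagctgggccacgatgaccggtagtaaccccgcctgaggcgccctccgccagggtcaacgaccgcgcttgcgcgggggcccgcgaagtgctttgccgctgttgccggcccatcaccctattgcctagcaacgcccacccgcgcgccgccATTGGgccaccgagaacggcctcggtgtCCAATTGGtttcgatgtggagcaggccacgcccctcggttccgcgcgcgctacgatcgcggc
Acly: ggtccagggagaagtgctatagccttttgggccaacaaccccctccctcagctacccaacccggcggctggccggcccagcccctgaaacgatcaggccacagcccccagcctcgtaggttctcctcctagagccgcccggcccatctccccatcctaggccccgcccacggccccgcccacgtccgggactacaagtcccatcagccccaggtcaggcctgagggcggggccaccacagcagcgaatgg

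CCAAT was present in the promoters of 14 of the 15 sterol enzymes with a sequence, of 4 of 5 regulators and carriers and of 1 of 4 genes of the fatty acid arm. The share was 37.5% over all 27025 genes with a promoter sequence and 40.9% over the 10427 of them that were measured in tumour-like cells. Ebp has it as well, so among the sequences shown the match does not separate members by how they differed. TCACNCCAC occurred in 1 of the 24 members, Hmgcs1, against 1.22% of all genes and 1.23% of the measured genes. A looser form, TCACNCNAC, occurred in 2 of the 24, Hmgcs1 and Nsdhl, against 2.65% of all genes and 2.77% of the measured genes. CACGTG, the palindromic E-box, occurred in 5 of the 24 members, namely Hsd17b7, Sc5d, Dhcr7, Scap and Insig1, against 6.86% of all genes and 9.77% of the measured genes. These are matches of letters and not measured binding sites.

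In tumour-like cells (681 in the WT-labelled library and 1079 in the KO-labelled library), 17 of 18 sterol enzymes were at least 1.5-fold lower in the KO-labelled library and none was higher. Of all 13811 genes with at least 50 UMIs in this class, 8% were that much lower and 12.9% that much higher. The median log2 ratio, KO-labelled over WT-labelled, was -1.42 over the sterol enzymes and 0.018 over all measured genes. In the fatty acid arm 2 of 6 genes were at least 1.5-fold lower, none was higher, and the median was -0.27. Summed over its genes, the sterol arm stood at 865 CPM (853 to 878) in the WT-labelled library and 313 CPM (307 to 319.5) in the KO-labelled library, a log2 ratio of -1.47, -1.50 to -1.43. The sum of the fatty acid arm was 385 CPM (377 to 393) and 327 CPM (321 to 334) (-0.23, -0.28 to -0.19).

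**Figure D1:**
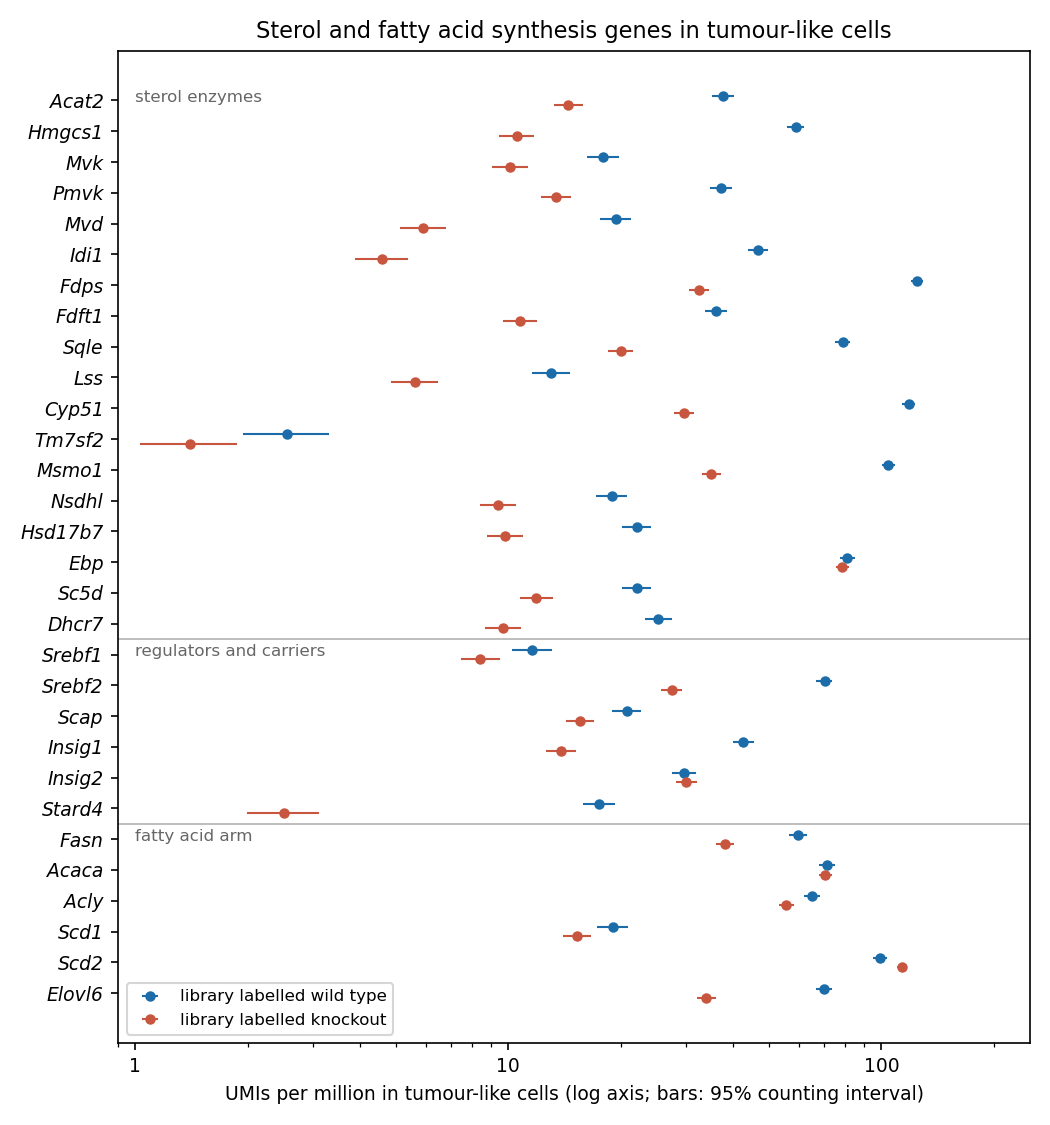
Level of each of the 30 genes in tumour-like cells, in CPM on a log axis, with points for the 2 libraries and bars for the 95% counting interval. All sterol enzymes other than Ebp lie at least 1.5-fold to the left in the KO-labelled library. Ebp, Srebf1, Scap, Insig2, Acaca, Acly, Scd1 and Scd2 lie within 1.5-fold.

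The sterol enzymes that differed most, Idi1 and Hmgcs1, belong to the early, mevalonate part of the pathway. Idi1, the isomerase that makes the reactive isoprene unit, was at 46.8 CPM (43.99 to 49.7) in the WT-labelled library and 4.58 CPM (3.87 to 5.37) in the KO-labelled library. That is a 10.2-fold lower level (log2 ratio -3.35, -3.61 to -3.11), and 19 of the 13811 measured genes had a lower ratio. Hmgcs1, which condenses acetyl-CoA units to HMG-CoA, was at 58.9 CPM (55.8 to 62.1) and 10.5 CPM (9.44 to 11.7), with 1336 and 345 UMIs. Acat2, the thiolase that supplies its substrate, was at 37.6 CPM (35.1 to 40.2) and 14.5 CPM (13.2 to 15.9). The kinases and decarboxylase that follow were lower too: Mvk by 1.78-fold, Pmvk by 2.77-fold and Mvd by 3.28-fold. Fdps, which joins isoprene units to farnesyl diphosphate, went from 125 CPM (120.4 to 129.7) to 32.5 CPM (30.6 to 34.5).

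Enzymes from squalene onward were lower as a group with 1 exception. Fdft1, the squalene synthase, stood at 36.1 CPM (33.6 to 38.6) and 10.7 CPM (9.65 to 11.9). Sqle, the squalene epoxidase and a rate-limiting step, stood at 78.8 CPM (75.1 to 82.5) and 20.04 CPM (18.5 to 21.6). Lss, which closes the rings to lanosterol, was 2.32-fold lower. Among the enzymes that trim lanosterol, Cyp51 was at 118 CPM (114 to 123) and 29.6 CPM (27.8 to 31.5), and Msmo1 at 104 CPM (100.3 to 109) and 35.03 CPM (33.03 to 37.1). Nsdhl, Hsd17b7, Sc5d and Dhcr7 were lower by 2.02-fold, 2.26-fold, 1.86-fold and 2.60-fold. Tm7sf2, a sterol reductase, had 58 and 46 UMIs, and its interval (-0.87, -1.46 to -0.28) reaches ratios under 1.5-fold. Ebp, the sterol isomerase, was the exception, at 80.96 CPM (77.3 to 84.8) and 78.7 CPM (75.6 to 81.8) (-0.042, -0.13 to 0.045).

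The regulators split. Srebf2 was at 70.4 CPM (67.02 to 73.97) in the WT-labelled library and 27.4 CPM (25.6 to 29.2) in the KO-labelled library, 2.57-fold lower. Srebf1 was within 1.5-fold (-0.46, -0.71 to -0.21), as was Scap (-0.41, -0.60 to -0.23). Insig1 was 3.07-fold lower (-1.62, -1.78 to -1.46), whereas Insig2 stood at 29.6 CPM and 30.02 CPM (0.02, -0.12 to 0.16). Stard4, which encodes a soluble sterol carrier, went from 17.5 CPM (15.9 to 19.4) to 2.50 CPM (1.99 to 3.11), the next largest difference among the 30 genes after Idi1. In the fatty acid arm Elovl6, which lengthens palmitate, was at 70.3 CPM (66.8 to 73.8) and 33.9 CPM (31.96 to 35.98) (-1.05, -1.16 to -0.94). Fasn, the fatty acid synthase, was 1.57-fold lower, with an interval (-0.65, -0.76 to -0.54) that reaches under the 1.5-fold line. Acaca, the carboxylase that feeds it, was at 71.6 CPM and 70.8 CPM, and Acly and Scd1 were within 1.5-fold (-0.23, -0.33 to -0.13 and -0.32, -0.51 to -0.13). Scd2, a stearoyl-CoA desaturase, was within 1.5-fold in the other direction (0.19, 0.12 to 0.27).

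Several marker sums moved with these differences in tumour-like cells. The summed level of 10 oligodendrocyte markers was 899.7 CPM in the WT-labelled library and 456 CPM in the KO-labelled library. The 8 mitotic markers summed to 1824 and 1145 CPM. At least 20 CPM was reached by 6 and 4 of the 10 oligodendrocyte markers and by all 8 mitotic markers in both libraries. The 12 T cell markers summed to 16.00 and 38.7 CPM and the 9 NK cell markers to 9.70 and 58.3 CPM, and of these Eomes was at 0 in the WT-labelled library. Their part in the sterol result was not tested. Without the mitotic cluster 17 of 18 sterol enzymes were at least 1.5-fold lower. That count kept the Mapk4/Lrrtm3 cluster, described below, which also carried mitotic markers (2005 and 2039 CPM). This cluster held 36.0% of tumour-like cells in the WT-labelled and 10.0% in the KO-labelled library. The removal thus left much of the difference in dividing cells in place, and its part was not tested. Without the cells that held a UMI of a T cell or NK cell marker, 16 of 17 were lower. When the tumour-like cells were clustered again, 34 cells of the WT-labelled and 1 of the KO-labelled library grouped as oligodendrocyte-like, and 9 and 53 as NK cell-like. Without all of these cells the count was again 17 of 18, the median -1.42, and the sterol sums 829 and 313 CPM (-1.41, -1.44 to -1.37).

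Other genes of the same metabolism, listed separately, differed less. For comparison, the same 1.5-fold cut marked 8% of everything measured in this class as lower and 12.9% as higher. Counts of 1 or 2 in lists this short lie close to those shares, so the genes named below are descriptions. Of 10 genes of the isoprenoid branch, which draw on farnesyl diphosphate for prenylation, ubiquinone and dolichol, 0 were 1.5-fold different, and the extremes were Fnta (-0.44, -0.54 to -0.35) and Pdss2 (0.38, 0.29 to 0.47). Of 18 genes that supply and modify fatty acids, 2 were lower, Acsl3, an acyl-CoA synthetase (84.9 CPM and 39.7 CPM), and Fads1, a desaturase (-0.68, -0.84 to -0.52). Of 9 other genes of sterol regulation, 1 was lower, Tmem97, a membrane protein that binds the cholesterol transporter NPC1 (101 CPM (96.7 to 105) and 45.7 CPM (43.4 to 48.05)). The next in that list was Erlin1 (-0.28, -0.42 to -0.14). Of 14 genes of sterol transport, esterification and the oxysterol response, 12 were measured and 2 were higher, Nr1h3, which encodes an oxysterol receptor, and Abca1, a cholesterol exporter. Abca1 rested on 13 and 54 UMIs (0.573 CPM (0.305 to 0.980) and 1.65 CPM (1.24 to 2.15)).

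The tumour-like class held 4 clusters, called states here and named by leading genes. They were the Chn2/Nuak1 state (260 and 441 cells), the Apoc1/Sdc4 state (59 and 405), the Mapk4/Lrrtm3 state (245 and 108) and the mitotic state (117 and 125), WT-labelled first. In the WT-labelled library the sterol sum was 1087 CPM (1061 to 1114) in the mitotic state, 928 CPM (908 to 949) in the Mapk4/Lrrtm3 state, 683 CPM (664 to 702) in the Chn2/Nuak1 state and 312 CPM (277 to 351) in the Apoc1/Sdc4 state. No 2 of these intervals overlap. In the KO-labelled library the sums spanned less, from 269 CPM (259 to 279.7) in the Apoc1/Sdc4 state to 410.0 CPM (389.5 to 431) in the Mapk4/Lrrtm3 state. Idi1 had the widest span of the sterol enzymes, with 7.72 CPM in the Apoc1/Sdc4 state and 60.1 CPM in the mitotic state in the WT-labelled library, the lower value resting on 7 UMIs. The Mapk4/Lrrtm3 state also carried mitotic markers, at 2005 and 2039 CPM against 3758 and 3945 CPM in the mitotic state.

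**Figure D2:**
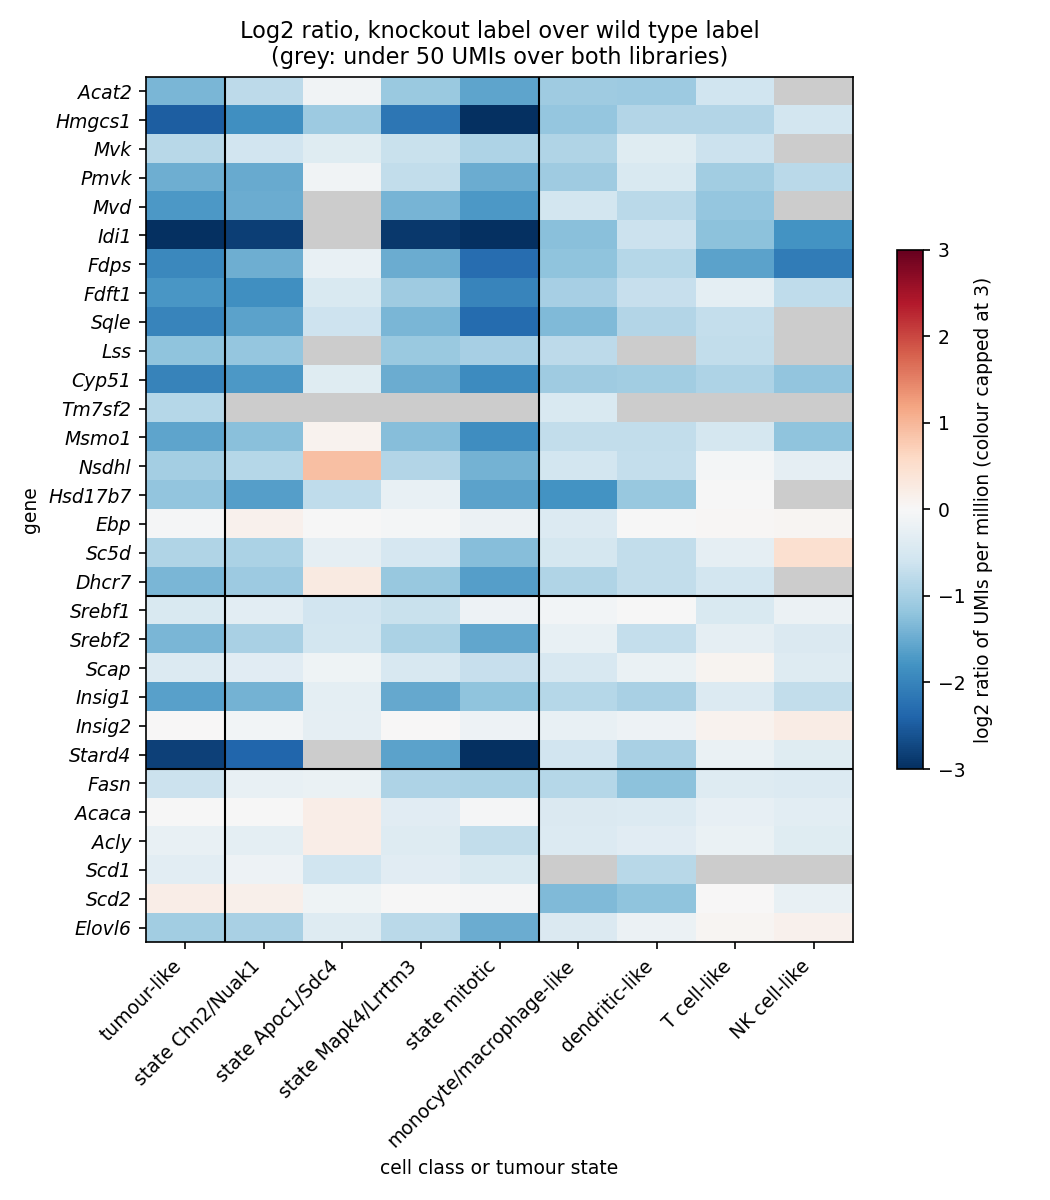
Log2 ratio of each gene, KO-labelled over WT-labelled, in tumour-like cells, in the 4 tumour states and in 4 host classes, with grey for genes under 50 UMIs. Blue (lower in the KO-labelled library) runs through the sterol rows of 3 states and fades in the Apoc1/Sdc4 state, and the Ebp and Insig2 rows stay near white.

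The counts were high in 3 of the 4 states. Of 17 measured sterol enzymes, 15 were at least 1.5-fold lower in the Chn2/Nuak1 state, where 6.93% of all genes were that much lower and 6.42% higher, with a median of -1.47. The mitotic state had 16 of 17 (median -1.66), against 7.01% of all genes lower and 10.5% higher. The Mapk4/Lrrtm3 state had 14 of 17 (median -1.12), against 7.21% lower and 8.55% higher. No member was higher in these 3 states. In the Apoc1/Sdc4 state 3 of 14 were lower and 1, Nsdhl, was higher, against 8.15% of all genes lower and 8.34% higher, with a median of -0.25. Nsdhl there rested on 5 UMIs in the WT-labelled library, and its interval (0.89, -0.38 to 2.55) includes 0. This state held 8.66% of the tumour-like cells in the WT-labelled library and 37.5% in the KO-labelled library. In the mitotic state Hmgcs1 was at 69.9 CPM (63.3 to 76.9) and 8.49 CPM (6.43 to 11.01), and Stard4 was at 28.8 CPM (24.7 to 33.5) and 2.24 CPM (1.25 to 3.69). The fatty acid sum differed most in the mitotic state (-0.57, -0.65 to -0.48) and least in the Apoc1/Sdc4 state (-0.076, -0.24 to 0.087). Whether the difference between libraries itself differs between states was not tested. Oligodendrocyte markers summed to 1482 and 451 CPM in the Chn2/Nuak1 state and to 917 and 373 CPM in the mitotic state. All of the cells that grouped as oligodendrocyte-like on clustering again were in the Chn2/Nuak1 state. Without them and those that grouped as NK cell-like, 13 of its 17 sterol enzymes were at least 1.5-fold lower (median -1.12), the sterol sums were 550.2 and 304 CPM, and the marker sums 882 and 439.9 CPM. The counts of the mitotic, Mapk4/Lrrtm3 and Apoc1/Sdc4 states were then 16 of 17, 14 of 17 and 3 of 14.

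Cell by cell, the WT-labelled library had a long upper tail. Its median tumour-like cell held 4.09 sterol enzyme UMIs per 10000 UMIs, the 90th percentile 17.2 and the 99th percentile 39.2. In the KO-labelled library the same points were 2.70, 4.83 and 13.2. Cells at 20 or more per 10000 numbered 51 of 681 (7.49%) and 5 of 1079 (0.463%). By state they numbered 16, 0, 22 and 13 in the WT-labelled library, in the order Chn2/Nuak1, Apoc1/Sdc4, Mapk4/Lrrtm3 and mitotic, and 5, 0, 0 and 0 in the KO-labelled library. Of the 51 in the WT-labelled library, 9 had grouped as oligodendrocyte-like and 3 as NK cell-like on clustering again. For the fatty acid arm the 90th percentiles were 6.61 and 5.62.

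**Figure D3:**
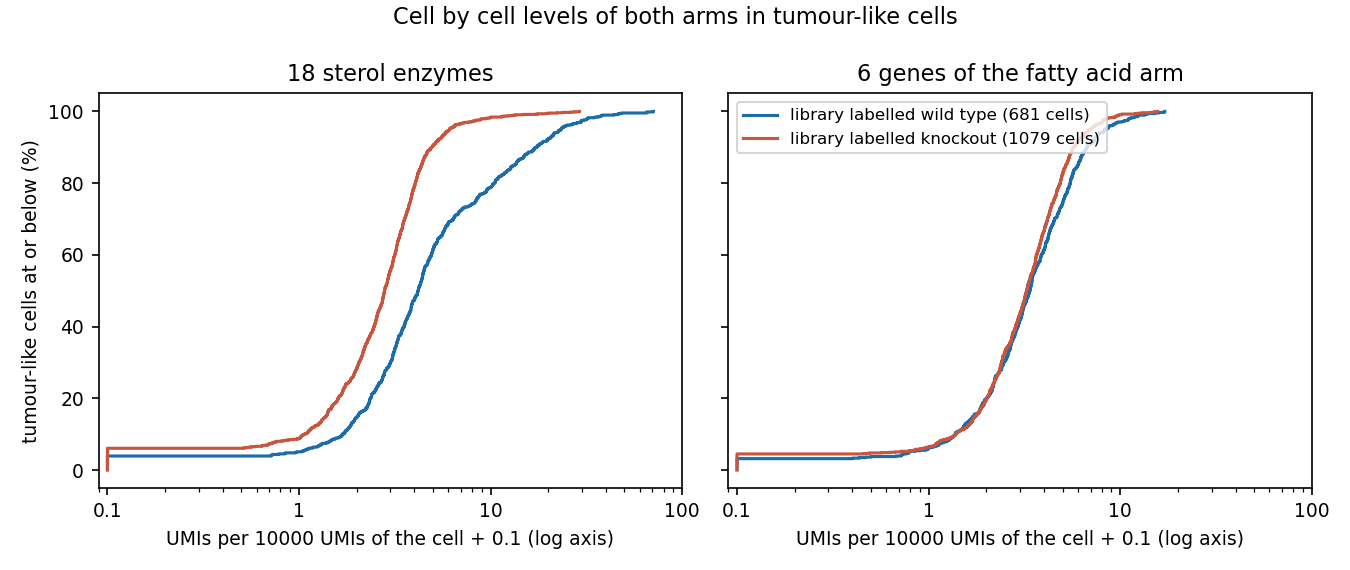
Cumulative share of tumour-like cells against the UMIs of each arm per 10000 UMIs of the cell, on a log axis after adding 0.1, with 1 line per library. The sterol lines lie apart, most of all at the top, with a 90th percentile of 17.2 in the WT-labelled library and 4.83 in the KO-labelled library, and the fatty acid lines nearly coincide.

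The tenth of tumour-like cells richest in sterol UMIs was described separately, and since these cells were chosen by the sterol arm, only other genes are informative. They held 45.1% of all sterol UMIs in the WT-labelled library and 20.99% in the KO-labelled library. In the WT-labelled library their fatty acid sum was 727 CPM, against 327 CPM in the rest, and Elovl6 was 3.13-fold, Scd2 2.64-fold and Fasn 2.08-fold higher. In the KO-labelled library the fatty acid sum was 323 CPM in the tenth and 328 CPM in the rest. The tenth in the WT-labelled library was deeper than the rest, with medians of 42922 and 29457 UMIs per cell, and had 2211 against 1758 CPM of mitotic markers, and 13 of its 69 cells had grouped as oligodendrocyte-like. Across single cells of a state, the log2 levels of both arms had Pearson r values from 0.30 (59 cells, Apoc1/Sdc4) to 0.62 (117 cells, mitotic) in the WT-labelled library, where Spearman's rho ran from 0.15 to 0.57 in the same states. In the KO-labelled library r was 0.52 in the Mapk4/Lrrtm3 state (108 cells), 0.13 in the mitotic state (125 cells), 0.057 in the Apoc1/Sdc4 state (405 cells) and -0.019 in the Chn2/Nuak1 state (441 cells), with rho at 0.27, -0.014, -0.0073 and -0.036. Both arms of a cell share its depth, so these are descriptions.

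In host cells the sterol arm was lower in the KO-labelled library as well. In the 4 host classes with at least 100 cells in both libraries, 42 of 61 measured pairs of a sterol enzyme and a class were at least 1.5-fold lower and none was higher, where 6.13% of all such pairs of a gene and a class were lower. Monocyte/macrophage-like cells had 13 of 18 enzymes lower (median -0.96), where 6.81% of all genes were lower and 8.32% higher. Dendritic-like cells had 13 of 16, where 8.23% were lower and 11.1% higher (median -0.74). T cell-like cells had 10 of 17 (median -0.63), where 4.18% were lower and 7.2% higher. NK cell-like cells had 6 of 10 (median -0.78), where 5.32% were lower and 7.4% higher. The fatty acid arm had 5 of 21 such pairs, 2 of them in monocyte/macrophage-like and 3 in dendritic-like cells. Idi1, Fdps and Cyp51 were at least 1.5-fold lower in all 4 classes, and Ebp in none of the 4 (log2 ratios from -0.40 to 0.049).

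By class, Hsd17b7, a ketoreductase, differed most in monocyte/macrophage-like cells, at 10.8 CPM (8.91 to 12.9) and 3.09 CPM (2.31 to 4.06) (-1.80, -2.30 to -1.32). In dendritic-like cells it was Fasn, at 17.03 CPM (13.6 to 21.1) and 7.29 CPM (5.60 to 9.33) (-1.22, -1.72 to -0.73), a gene of the fatty acid arm. In T cell-like cells Fdps stood at 70.3 CPM (63.97 to 77.1) and 23.2 CPM (20.96 to 25.6) (-1.60, -1.80 to -1.40), and in NK cell-like cells at 52.3 CPM (42.2 to 64.1) and 12.3 CPM (9.37 to 15.9) (-2.09, -2.58 to -1.60). Scd2 was lower in the myeloid classes, at 34.9 CPM and 14.04 CPM in monocyte/macrophage-like cells, and level in T cell-like cells (0.022, -0.28 to 0.34). Idi1 was at 29.7 CPM and 12.4 CPM in monocyte/macrophage-like cells and Cyp51 at 77.5 CPM and 37.5 CPM in dendritic-like cells. Insig1 was at least 1.5-fold lower in 3 of the 4 classes, Srebf2 and Stard4 in dendritic-like cells alone. Sc5d had the largest ratio above 0 (0.48, -0.14 to 1.13, NK cell-like cells), on 28 and 105 UMIs.

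Outside the members, Abca1 was at least 1.5-fold higher in all 4 host classes, for example 2.05 CPM (0.984 to 3.77) and 10.4 CPM (8.37 to 12.8) in dendritic-like cells, though its interval in NK cell-like cells includes 0 (0.74, -0.011 to 1.56). The exporter gene Abcg1 was higher in 3 of the 4, and both genes were singled out here after their values were seen. Tmem97 was at least 1.5-fold lower in all 4. Of all genes measured in these classes, 7.2% to 11.1% were that much higher and 4.18% to 8.23% that much lower. These 3 genes come from longer lists whose other members are not given for host cells, so they do not describe the lists.

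Composition and other markers moved with the host result too. Among monocyte/macrophage-like cells, the cluster led by H2-M2 and Ccl24 held 397 of 722 cells in the WT-labelled library and 257 of 1091 in the KO-labelled library. Adamdec1 and Mmp12 were also among its leading genes. Within this cluster the sterol sum had a log2 ratio of -0.62, -0.69 to -0.56. The 8 mitotic markers summed to 274 and 110.02 CPM in monocyte/macrophage-like, 412 and 251 CPM in dendritic-like, 1271 and 916 CPM in T cell-like and 55.7 and 52.6 CPM in NK cell-like cells. Without the dividing clusters 39 of 59 sterol pairs were at least 1.5-fold lower. The 9 NK cell markers summed to 5273 and 2843 CPM in T cell-like cells, with 8 and 5 of them at 20 CPM or more. The 12 T cell markers summed to 41.2 and 285 CPM in dendritic-like cells, with 1 and 7 at that level, and Cd4 and Lat were at 0 in the WT-labelled library. The part of these T cell and NK cell markers in the result was not tested.

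Of the 21 clusters with a host class name and at least 20 cells in both libraries, the sterol sum was lower in the KO-labelled library in 18, with an interval wholly below 0 in 14 and above 0 in 0. For the fatty acid sum the same counts were 15, 10 and 0, and for the regulators and carriers 18, 12 and 0. At the 1.5-fold cut the arms lay further apart. The sterol sum was that much lower in 10 of the 21 clusters, the fatty acid sum in 2 and the regulator sum in 3. The median cluster was 1.48-fold lower in the sterol sum and 1.15-fold lower in the fatty acid sum. Barcodes with fewer than 500 genes, 3990 in the WT-labelled and 1239 in the KO-labelled library, can hold free RNA or damaged cells, and which of these they held was not tested. They carried sterol enzymes at 186 CPM (166 to 208) and 107 CPM (87.8 to 128), and the fatty acid arm at 111 CPM (95.03 to 128) and 151 CPM (128 to 176), higher in the KO-labelled library. Tumour markers summed to between 29.5 and 45.9 CPM in the 4 host classes in the WT-labelled library and between 37.7 and 47.4 CPM in the KO-labelled library, against 3063 and 3214 CPM in tumour-like cells. The part of free RNA in the result was not tested.

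When the comparison used cells with Y-linked UMIs and without Xist alone, 38 of 48 sterol pairs were at least 1.5-fold lower, and the fatty acid count was 10 of 19, against 11.5% of all pairs of a gene and a class. That subset left 77 NK cell-like and 66 dendritic-like cells in the KO-labelled library, fewer than the 100 asked for above. In the other two classes, with 181 monocyte/macrophage-like and 294 T cell-like cells there, 14 of 16 and 11 of 16 sterol enzymes were lower, where 14.9% and 7.9% of all genes were.

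Over the 11 classes that reached 20 cells in both libraries, oligodendrocyte-like cells had the highest level of both arms. Their sterol sum was 1614 CPM (1480 to 1757) in the WT-labelled library and 1119 CPM (1064 to 1177) in the KO-labelled library, from 30 and 107 cells, and their fatty acid sum 2652 CPM (2480 to 2834) and 2479 CPM (2396 to 2565). Scd2 gave 666 of the 876 and 2610 of the 3351 UMIs of the latter, at 2016 CPM and 1931 CPM, and had the widest span over classes among the members with a UMI in every class. The members with a class at 0 were not ranked, 6 in the WT-labelled library (Fdps, Lss, Tm7sf2, Nsdhl, Dhcr7 and Scd1) and 2 in the KO-labelled library (Tm7sf2 and Scd1). Scd2 was 111-fold higher in oligodendrocyte-like cells than in microglia-like cells in the WT-labelled library, where the low value rests on 15 UMIs, and 138-fold higher than in monocyte/macrophage-like cells in the KO-labelled library. Plasmacytoid dendritic-like cells (1374 CPM (1277 to 1477)) and neuroblast-like cells (1346 CPM (1229 to 1471)) came next in the sterol arm in the WT-labelled library, and their intervals overlap. Microglia-like cells were lowest in the sterol arm of the WT-labelled library, at 214 CPM (183 to 248), and B cell-like cells overlap with them at 229.6 CPM (172 to 299.6). In the KO-labelled library NK cell-like cells (193 CPM (181 to 206)) and microglia-like cells (208 CPM (197 to 220.1)) were lowest, with overlapping intervals. Idi1 and Sqle were at 3.62 and 1.21 CPM in microglia-like cells in the WT-labelled library, on 3 and 1 UMIs.

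**Figure D4:**
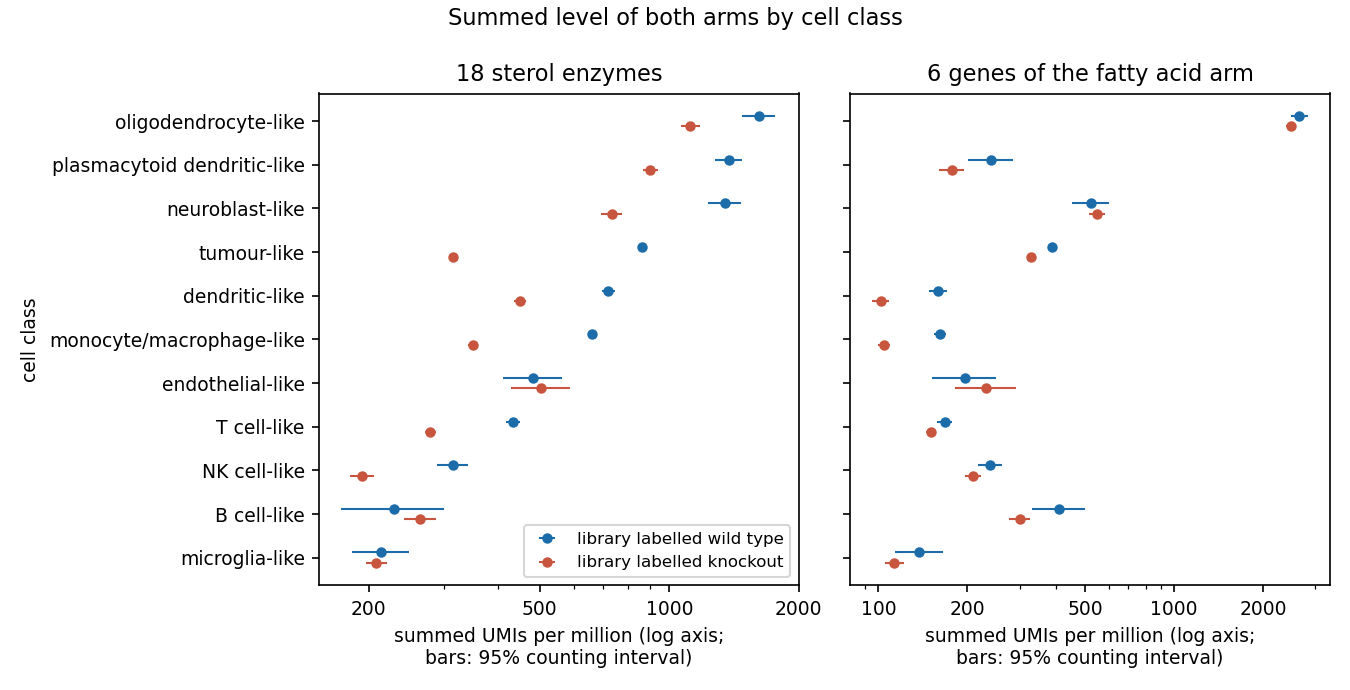
Summed level of the sterol enzymes and of the fatty acid arm in 11 cell classes, in CPM on log axes, with points for the 2 libraries and bars for the 95% counting interval. Oligodendrocyte-like cells are highest in both arms, and the libraries' sterol intervals overlap in microglia-like, B cell-like and endothelial-like cells.

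The libraries did not differ beyond counting error in the sterol sum of microglia-like (-0.035, -0.26 to 0.20), B cell-like (0.20, -0.21 to 0.63) and endothelial-like cells (0.06, -0.27 to 0.39), although the last 2 intervals are wide. In neuroblast-like cells the sterol sum was 1.83-fold lower in the KO-labelled library (-0.87, -1.02 to -0.72) and the fatty acid sum was not detectably different (0.075, -0.15 to 0.31). Mitotic markers and markers of other cell types differed within that class as well, from 30 and 126 cells. The mitotic markers summed to 2348 and 1276 CPM and 7 astrocyte markers to 1338 and 2056 CPM. For 12 tumour markers the sums were 1343 and 1919 CPM. For 4 ependymal markers they were 5.55 and 104 CPM, with Foxj1, Ccdc153 and Tmem212 at 0 in the WT-labelled library. The part of these markers in the sterol ratio was not tested. In oligodendrocyte-like cells the same ratios were -0.53, -0.67 to -0.38 and -0.097, -0.20 to 0.012. In plasmacytoid dendritic-like cells both sums were lower (-0.60, -0.72 to -0.48 for the sterol enzymes and -0.44, -0.73 to -0.15 for the fatty acid arm).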

How the data were processed

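Each library is a 10x Genomics 3′ v3.1 library, per the labels' protocols. The authors deposited UMI counts per gene and barcode over 68886 human and mouse features, made with Cell Ranger 7.1.0 on mm10, per the submitters' processing notes, which also name Seurat 5.0.2. Barcodes under 500 mouse genes or above 10% mitochondrial UMIs were dropped, and the barcodes Scrublet scored highest were removed as doublets (77 and 164). The automatic Scrublet threshold marked 0.289% of the WT-labelled library, so the expected number (2.49%) was removed there, while the KO-labelled library kept the automatic threshold (2.49%, where 5.26% was expected), so the libraries were treated by different rules. The 31 clusters came from scanpy 1.11.5 (2000 variable genes without the members and pathway lists, 30 components, 15 neighbours, Leiden resolution 1) and were named by markers.

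UMIs were summed per class and library, scaled to CPM, and compared as log2 ratios with exact intervals conditional on the summed counts (Python 3.11.15, scipy 1.17.1). A gene counted as measured with at least 50 UMIs in the class over both libraries, and as different at 1.5-fold. The interval code was tested on simulated data. In exons annotated in GENCODE M21, 4 members overlap another gene on the same strand, among them Fdps with Gm43738 and Tm7sf2 with Vps51, and 8 on the opposite strand, among them Fdft1 with Ctsb, so their counts are uncertain, as are those of Acat2 with its near copy Acat3 and of Scd1 and Scd2. The members and lists were chosen with earlier results of these data known. All 30 members could be named, and from each other list the 2 genes with the largest difference in tumour-like cells.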

Additional observations from a re-analysis of the deposited data

How the results depend on the processing

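The 15 alternatives in tumour-like cells (13 for Tm7sf2) kept the direction of every member at least 1.5-fold lower there. The count of sterol enzymes at least 1.5-fold lower was 17 in 11 of them and fell to 16 or, without the 10% of cells richest in sterol UMIs, to 14. Some alternatives could hardly change it. Leiden resolution 0.5 gave the same 681 and 1079 tumour-like cells, and a minimum of 10 UMIs added no sterol enzyme. The median log2 ratio of all genes, set to 0 in another, was 0.018. Leaving out mitochondrial, ribosomal and Malat1 UMIs shifted ratios by -0.0084. Mvk passed 1.5-fold in 13 of 15, Nsdhl in 14 of 15 and Tm7sf2 in 12 of 13. Removing the expected number of doublets in both libraries (182 more in the KO-labelled library), also chosen after seeing the data, gave 17 of 18 and 40 of 61 host pairs. The values without cells of other classes and without dividing host clusters were chosen in the same way. The sterol median of -1.42 was -1.09 with tumour clusters weighted alike in both libraries, and -1.08 without the 10% of cells richest in sterol UMIs, an alternative chosen after seeing the data. That last alternative moved the fatty acid median from -0.27 to -0.013. The count of fatty acid genes at least 1.5-fold lower was 1 in place of 2 with each cell given the same weight, without the mitotic cluster and without that 10%. With a minimum of 200 UMIs, 26 of 39 sterol pairs and 3 of 17 fatty acid pairs in host classes were lower, in place of 42 of 61 and 5 of 21, since fewer genes were measured, and the sterol median of NK cell-like cells was 0.049 in place of -0.78, from 1 gene. When cells with Y-linked UMIs and without Xist alone were used, 10 of 19 fatty acid pairs were lower, and the cause was not tested. Of 448 values of members in tumour-like cells, 373 moved by less than their counting interval and 75 by more. Of 104 arm medians in host classes, 97 did not move beyond it, 6 did and 1 changed sign. Of 9 further spans of arm sums over states or classes, 5 moved beyond it, all over states. They include the sterol span over states in the KO-labelled library, 0.61 on the log2 scale, which was 0.85 when the cells were clustered again and 0.50 when they were thinned to 5000 UMIs. No paired analysis was possible because each group has 1 library. Depth limits the small classes: B cell-like cells of the WT-labelled library held 54 sterol UMIs, and intervals cover counting error only.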
